A study of Drosophila melanogaster with 17 samples.

Results

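Among the genes of Drosophila melanogaster that carry only an annotation number (CG followed by digits) as their symbol, 82 were lower under RNA interference (RNAi) against Notch than in control flies in each of 3 microbiome conditions. They were chosen by 1 rule on their measured levels, whatever their function: in germ-free, L. brevis and L. plantarum flies alike, log2 of the Notch RNAi group mean plus 0.5 over the control group mean plus 0.5 had to be at most -1, with means in counts per 1000000 library counts (CPM) after TMM scaling, which adjusts library totals for composition. The 82 genes were drawn from 6043 genes with such a symbol among 17737 counted genes. Without the condition on the symbol, 237 genes met the same limit, of which 155 carry another kind of symbol and are called named genes here. Among the 11786 genes with enough counts to be tested, the limit was met by 2.01% of all, 2.1% of those with a CG number and 1.96% of the others. All 82 genes passed that filter on low counts. A CG symbol means only that a gene has not been given a name: for 22 of the 82 a RefSeq synonym or a well-known protein family gives a role, and for 60 none is given here.

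RNA was sequenced from small GFP-positive cells sorted from the intestines of adult virgin females, 100 pooled guts a sample, which the labels call intestinal progenitor cells. The labelled genotypes were esgts/NRNAi, called Notch RNAi here, and esgts, the control. By its name esgts is the temperature-sensitive escargot driver, which is active in progenitors and which both genotypes carry, so the RNAi acts where that driver does and not in the whole animal. Flies spent 5 days at 25 °C, were then kept germ free or given Lactobacillus brevis or Lactobacillus plantarum overnight as the only microbe, and spent 5 further days at 29 °C, the warm step at which such drivers are switched on. The 3 Notch RNAi groups (germ-free, L. brevis and L. plantarum) have 3 biological replicates each, as do the L. brevis and L. plantarum control groups, and the germ-free control group has 2 because a sample was lost.

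In the fly midgut, intestinal stem cells carry the ligand Delta, and daughter cells in which the receptor Notch is active become enteroblasts, the precursors of the absorptive, enzyme-secreting enterocytes. Daughters with little Notch signal become enteroendocrine cells, and loss of Notch from progenitors is known to give masses of stem-cell-like and enteroendocrine cells. The genes of the Enhancer of split complex, E(spl), are direct targets of the pathway.

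Total counts per library ran from 24192918 to 38237532. The targeted gene Notch (N) lay between 52.7 and 82.9 CPM in the 9 Notch RNAi libraries, against 166 to 224 CPM in the 8 control libraries, so that each library fits its labelled genotype. These levels do not check the labelled microbiome condition. Delta lay between 89.2 and 216 CPM in Notch RNAi libraries, against 9.24 to 37.3 CPM in controls. Of 9 tested E(spl) genes, 7 fell in germ-free, 7 in L. brevis and 8 in L. plantarum flies (edgeR's quasi-likelihood test, adjusted p under 0.05), with 1 higher in each. The lists for other cell types moved less evenly: of 20 tested enteroendocrine genes 15, 10 and 14 rose and 3, 4 and 3 fell, of 7 tested haemocyte genes 3, 2 and 1 fell, and of 16 visceral muscle genes 0 were called in germ-free, L. brevis and L. plantarum flies. The visceral muscle genes summed to 1148 CPM in L. brevis control replicate 3, against 257 and 355 CPM in replicates 1 and 2 of that group. Of 11 tested genes for progenitor and enteroblast regulators, 4, 4 and 5 fell and 2, 3 and 2 rose. That list holds Notch, the RNAi target, among the genes that fell in each condition, and Delta among those that rose. Of 11 tested genes of enterocyte identity 3, 2 and 1 fell and 3, 4 and 4 rose. Of 7 fat body genes 0, 4 and 0 were called, of 2 ovary genes 0, of 4 tracheal genes 2 in each condition, and of 7 Malpighian tubule genes 1, 2 and 1; no gene of these lists that was counted had 0 counts in every library. In such bulk samples, fewer cells of a type and less RNA per cell cannot be told apart.

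The 82 genes span a wide range of levels. Their level under Notch RNAi, the mean of the 3 group means, had a median of 4.49 CPM, and their control level, taken likewise, had a median of 20.3 CPM and ran from 0.867 to 4299 CPM. Per kilobase of exon, the median gene stood at 3.22 CPM under Notch RNAi and at 11.4 CPM in controls, where the median tested gene stood at 8.16 CPM and the median tested CG-numbered gene at 6.33 CPM. Control levels of at least 10 CPM were reached by 53 of the 82 genes, of at least 100 CPM by 15 and of at least 1000 CPM by 4. Most of the RNA came from few genes: CG12374 alone held 36.7% of their summed control level and the top 5 genes held 70.6%.

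**Figure D1:**
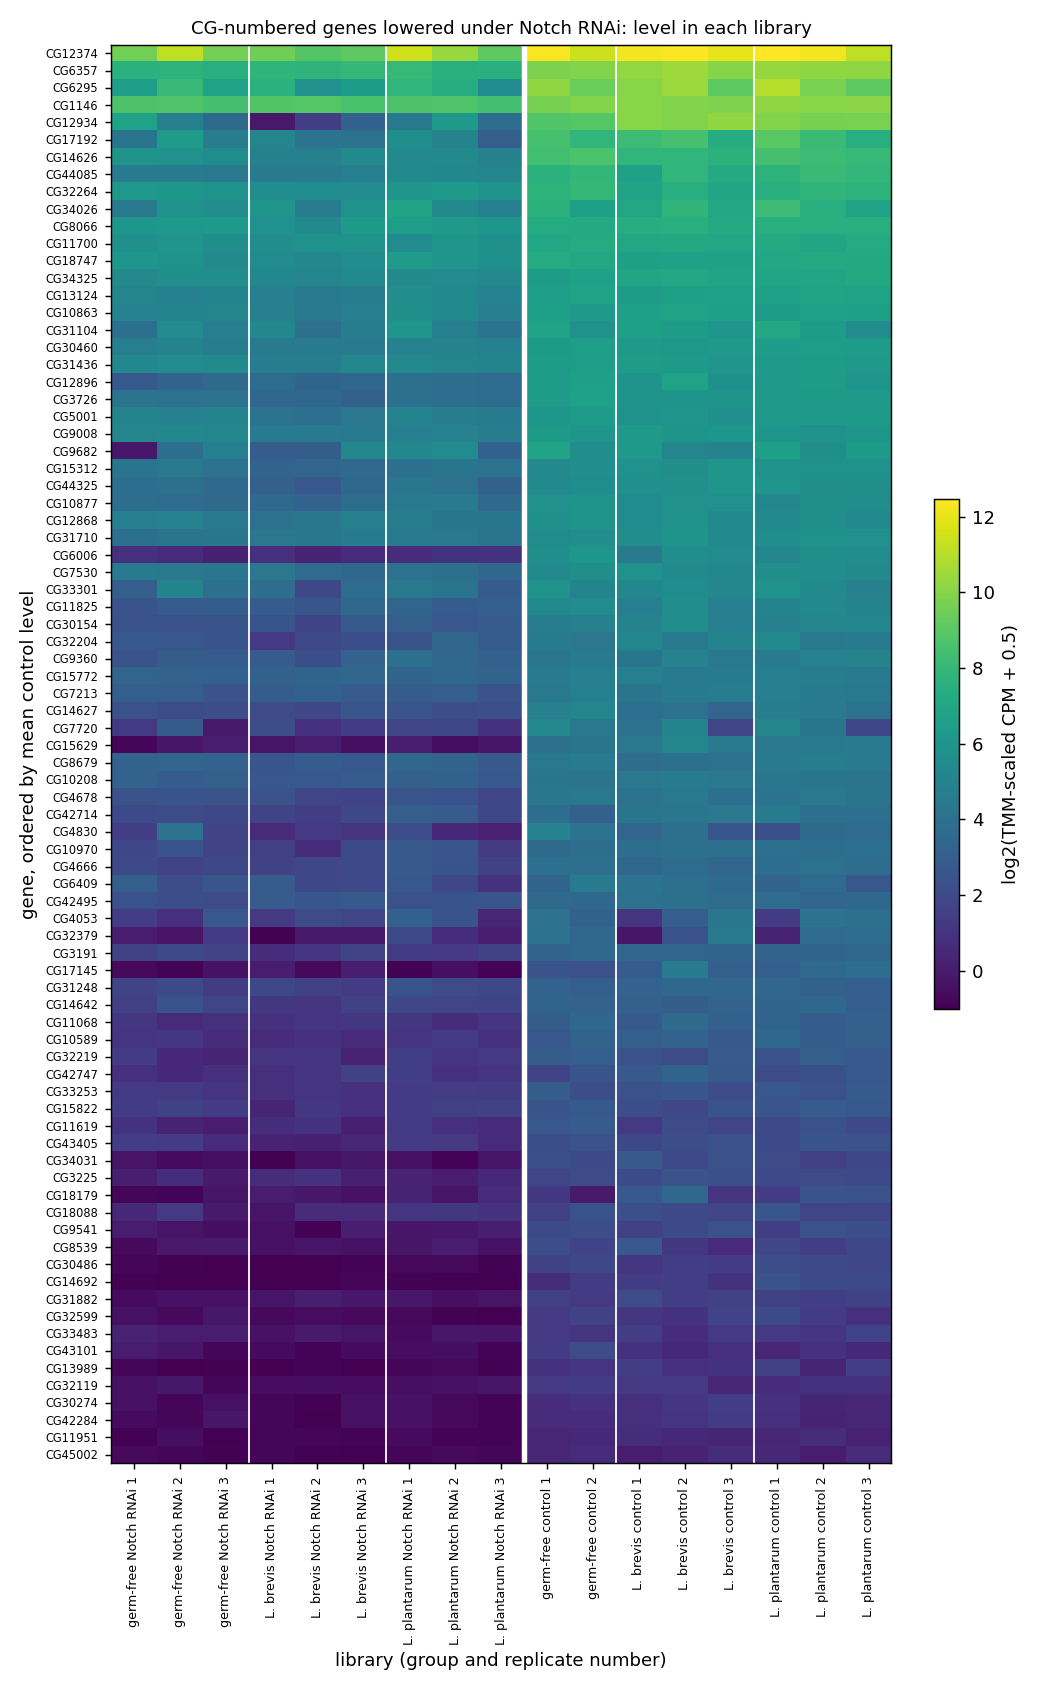
Level of each of the 82 genes (rows, ordered by mean control level) in each of the 17 libraries (columns, Notch RNAi left of the thick line and control right of it), as log2 of TMM-scaled CPM plus 0.5. CG12374 tops the rows at a control level of 4299 CPM, and rows that stay dark on the left, such as CG15629 and CG14692, are genes with almost no counts under Notch RNAi.

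The values that chose the genes are given here as a description, with no test. The median log2 ratio was -1.67 in germ-free, -1.82 in L. brevis and -1.55 in L. plantarum flies, where the median of all tested genes was 0.01, 0.00 and 0.03. Averaged over the 3 conditions the log2 ratio was at most -2 for 30 genes, at most -3 for 5, and above -1.5 for 27. The lowest of a gene's 3 ratios was that in L. brevis flies for 46 genes, in germ-free flies for 22 and in L. plantarum flies for 14, and among the 155 named genes under the same limit for 83, 38 and 34 in that order. The spread between a gene's highest and lowest ratio had a median of 0.56 and was over 1 for 13 genes, with the largest spread, 4.76, for CG12934, and 1.63 for CG18179, 1.61 for CG12374 and 1.44 for CG32379 after it.

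Every Notch RNAi library lay below every control library of the same condition for 82 genes in germ-free, 78 in L. brevis and 75 in L. plantarum flies, where 29.1%, 24.7% and 21.2% of all tested genes do so. Across conditions, all 9 Notch RNAi libraries lay below all 8 control libraries for 71 genes, against 8.55% of all tested genes. The other genes, in which at least 1 Notch RNAi library reached a control library, were CG12374, CG18179, CG31104, CG32379, CG33301, CG34026, CG4053, CG4830, CG6409, CG7720 and CG9682. In the fit across all genes, 74, 79 and 73 of the 82 were called lower in germ-free, L. brevis and L. plantarum flies. Of all tested genes, 14.7%, 20.3% and 16.2% were. Since the same contrast in the same libraries chose the genes, nothing is read from those calls or from the separation of libraries above. At the edge of the rule, CG31248, CG33483 and CG9008 were just inside with a highest ratio of -1.03, -1.01 and -1.01. CG9328, CG30151 and CG32055 were just outside with -0.997, -0.996 and -0.988, and 22 CG-numbered genes lay between -1 and -0.9, against 11 of the 82 between -1.1 and -1.

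**Figure D2:**
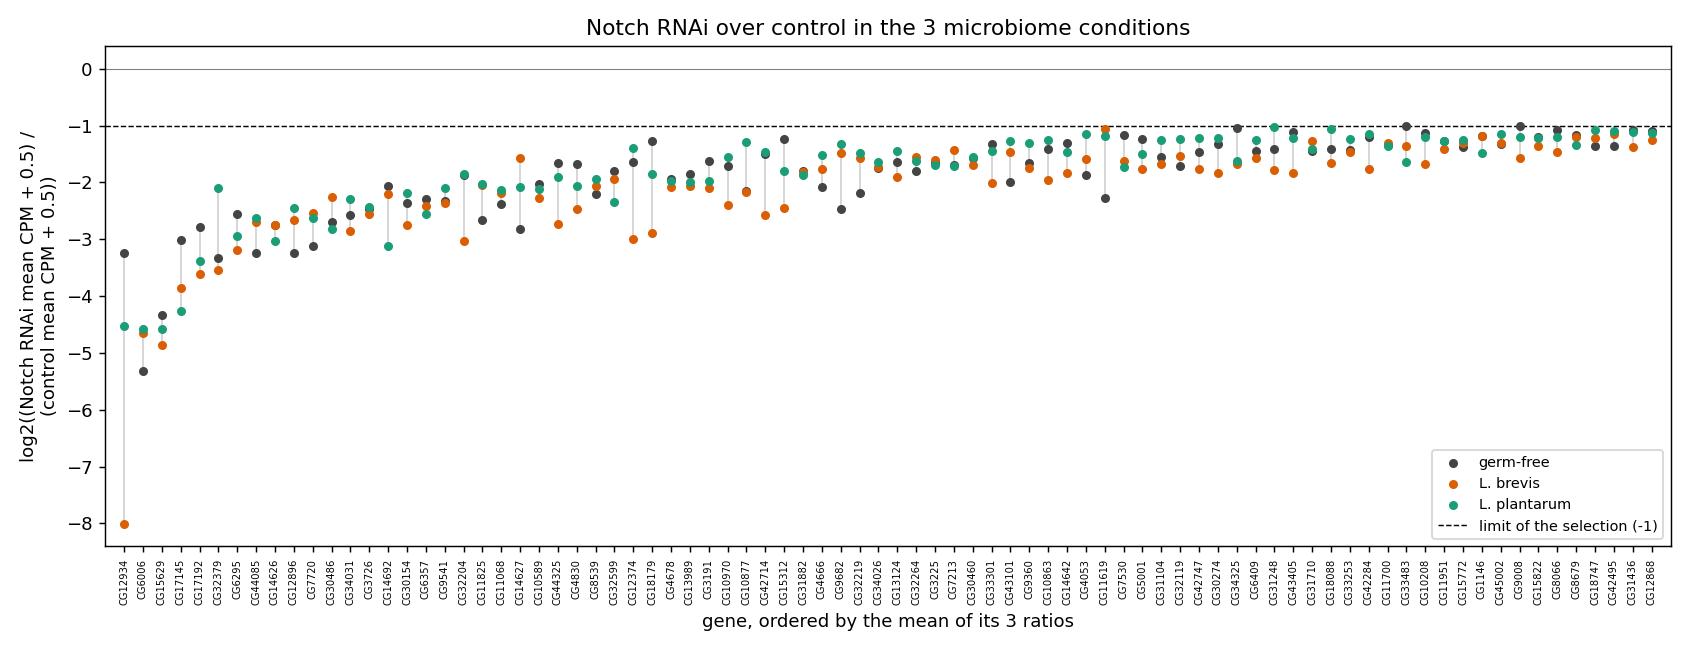
Log2 ratio of the Notch RNAi group mean over the control group mean, each plus 0.5 CPM, for the 82 genes ordered by their mean ratio; each dot is 1 microbiome condition and the dashed line is the limit of -1. All dots lie at or below the line by the way the genes were chosen, and CG12934 at the left has ratios of -3.25, -8.00 and -4.53 in germ-free, L. brevis and L. plantarum flies.

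Genes of the digestive-enzyme type made up the largest share of the RNA: 10 genes for lipases, carboxypeptidases and other proteases held 58.1% of the summed control level of the 82, with mean log2 ratios from -3.26 to -1.53. The most abundant of all, CG12374, belongs to the metallocarboxypeptidases, which cut amino acids from the end of peptides during digestion (chromosome 2R, 12762113-12763825, plus strand; positions here are those of the Ensembl BDGP6 annotation). CG12374 stood at 758, 2271 and 798 CPM in germ-free, 740.4, 463 and 557 CPM in L. brevis and 2909, 1352 and 560.3 CPM in L. plantarum Notch RNAi libraries, against 5145 and 2789 CPM in germ-free, 4811, 5387 and 3924 CPM in L. brevis and 5625, 4707 and 2339 CPM in L. plantarum controls. Germ-free replicate 2 and L. plantarum replicate 1 were high among Notch RNAi libraries, and that L. plantarum library stood above L. plantarum control replicate 3, so that within a condition the groups overlapped in L. plantarum flies alone. The fitted log2 fold changes were -1.64 ± 0.64, -3.004 ± 0.62 and -1.39 ± 0.59 (SE) in germ-free, L. brevis and L. plantarum flies.

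Both lipase genes of the set lie side by side on the minus strand of chromosome 3R, and RefSeq synonyms name them as lipases; lipases of this type split dietary lipids. CG6295 (27005899-27007055) stood at 88.5, 278 and 111 CPM in germ-free, 190.0, 55.1 and 85.2 CPM in L. brevis and 229, 164 and 44.4 CPM in L. plantarum Notch RNAi libraries, against 1216 and 667 CPM in germ-free, 1085, 1370.1 and 566 CPM in L. brevis and 1977, 858 and 554 CPM in L. plantarum controls. CG17192 (27017180-27018287) stood at 18.04, 87.7 and 25.05 CPM in germ-free, 34.2, 16.7 and 16.1 CPM in L. brevis and 51.9, 32.4 and 8.06 CPM in L. plantarum Notch RNAi libraries, against 371 and 234 CPM in germ-free, 302, 377 and 159 CPM in L. brevis and 512, 290.4 and 179 CPM in L. plantarum controls. In both, all Notch RNAi libraries lay below all control libraries, with germ-free replicate 2 the highest of the Notch RNAi libraries. Fitted log2 fold changes were -2.56 ± 0.80, -3.19 ± 0.77 and -2.95 ± 0.77 (SE) for CG6295 and -2.79 ± 0.81, -3.65 ± 0.80 and -3.41 ± 0.79 (SE) for CG17192 in germ-free, L. brevis and L. plantarum flies. Next to them lie other genes of the same region that did not meet the limit: CG6283, parted from CG17192 by CG17191, had log2 ratios of -3.14 in germ-free, 1.01 in L. brevis and 1.05 in L. plantarum flies. CG6296, on the other side, had ratios of 0.42, 0.72 and 1.93 in the same order. Other neighbours were below 0 in each condition: CG17191 had -2.45, -1.08 and -0.78, CG6277 -0.50, -1.40 and -0.77, and CG6271 -0.49, -1.15 and -0.99.

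CG6357, of the papain-type cysteine protease family, whose members break down proteins, varied little between replicates (chromosome 2R, 13840053-13841743, plus strand). It stood at 191, 209.8 and 170.2 CPM in germ-free, 226, 217 and 251 CPM in L. brevis and 258, 176 and 187 CPM in L. plantarum Notch RNAi libraries, against 893 and 968 CPM in germ-free, 1246, 1416 and 1039 CPM in L. brevis and 1292, 1190.0 and 1196 CPM in L. plantarum controls. No Notch RNAi library came near a control library, and the fitted log2 fold changes of -2.29 ± 0.15, -2.41 ± 0.15 and -2.57 ± 0.15 (SE) were close in germ-free, L. brevis and L. plantarum flies. The other carboxypeptidase-type genes were much scarcer. CG4678 stood at 4.58, 5.05 and 5.03 CPM in germ-free, 4.97, 3.04 and 2.79 CPM in L. brevis and 5.28, 4.66 and 3.07 CPM in L. plantarum Notch RNAi libraries, against 19.3 and 21.3 CPM in germ-free, 15.6, 20.5 and 14.6 CPM in L. brevis and 16.8, 20.7 and 17.9 CPM in L. plantarum controls. CG8539 stood at 0.132, 0.446 and 0.482 CPM in germ-free, 0.256, 0.352 and 0.299 CPM in L. brevis and 0.369, 0.514 and 0.282 CPM in L. plantarum Notch RNAi libraries, against 4.06 and 2.81 CPM in germ-free, 5.802, 1.75 and 1.04 CPM in L. brevis and 3.15, 2.27 and 3.29 CPM in L. plantarum controls. CG32379 stood at 0.561, 0.307 and 1.93 CPM in germ-free, 0.0321, 0.453 and 0.448 CPM in L. brevis and 3.36, 1.2 and 0.589 CPM in L. plantarum Notch RNAi libraries, against 17.3 and 10.6 CPM in germ-free, 0.371, 4.81 and 21.5 CPM in L. brevis and 0.7403, 12.4 and 13.7 CPM in L. plantarum controls. In CG4678 and CG8539 every Notch RNAi library lay below every control library, while CG32379 was under 1 CPM in L. brevis control replicate 1 and L. plantarum control replicate 1, within the range of Notch RNAi libraries.

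The serine-protease-type genes, which RefSeq synonyms number among the SP genes, were also scarce. CG18179 stood at 0.0989, 0.0558 and 0.362 CPM in germ-free, 0.513, 0.403 and 0.274 CPM in L. brevis and 0.739, 0.343 and 1.08 CPM in L. plantarum Notch RNAi libraries, against 1.76 and 0.475 CPM in germ-free, 6.04, 10.9 and 1.59 CPM in L. brevis and 2.15, 4.84 and 4.78 CPM in L. plantarum controls. CG4053 stood at 2.24, 1.28 and 5.696 CPM in germ-free, 1.96, 3.65 and 2.96 CPM in L. brevis and 8.68, 5.08 and 0.845 CPM in L. plantarum Notch RNAi libraries, against 16.6 and 8.64 CPM in germ-free, 1.59, 8.04 and 19.1 CPM in L. brevis and 2.07, 16.8 and 15.2 CPM in L. plantarum controls. CG14642 stood at 2.47, 4.66 and 2.98 CPM in germ-free, 1.73, 1.64 and 2.49 CPM in L. brevis and 3.32, 3.03 and 2.74 CPM in L. plantarum Notch RNAi libraries, against 9.46 and 8.77 CPM in germ-free, 8.33, 7.34 and 9.06 CPM in L. brevis and 9.44, 10.7 and 7.61 CPM in L. plantarum controls. The Notch RNAi range held 1 of the 8 control libraries of CG18179, germ-free replicate 2, and 4 of those of CG4053, whereas in CG14642 no Notch RNAi library reached a control library. CG14642 overlaps an exon of Gel on the other strand, and the use of strand in counting is not given in the sources used here, so its counts may hold reads of that gene.

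The digestive enzymes that were not part of the 82 also varied between libraries, and like CG12374 they were highest in L. plantarum replicate 1 among Notch RNAi libraries. Their summed level, over 53 genes for trypsins, Jonah proteases, maltases, amylases, mannosidases, lysozymes and for the lipase magro, ran from 16220.1 to 22423 CPM in germ-free, from 13588 to 27621 CPM in L. brevis and from 18231 to 52052 CPM in L. plantarum Notch RNAi libraries. In the controls it ran from 25228 to 51293 CPM in germ-free, from 33914 to 40175 CPM in L. brevis and from 25658 to 42381 CPM in L. plantarum libraries. Of those 53 genes, 14 fell and 2 rose in germ-free flies, 14 fell and 2 rose in L. brevis flies, and 1 fell and 5 rose in L. plantarum flies. The part of this shift in the result for the 82 genes was not tested. The summed level of the 82 genes without CG12374 lay between 1389 and 2172 CPM in the Notch RNAi libraries, against 6505 to 9360 CPM in the controls.

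**Figure D3:**
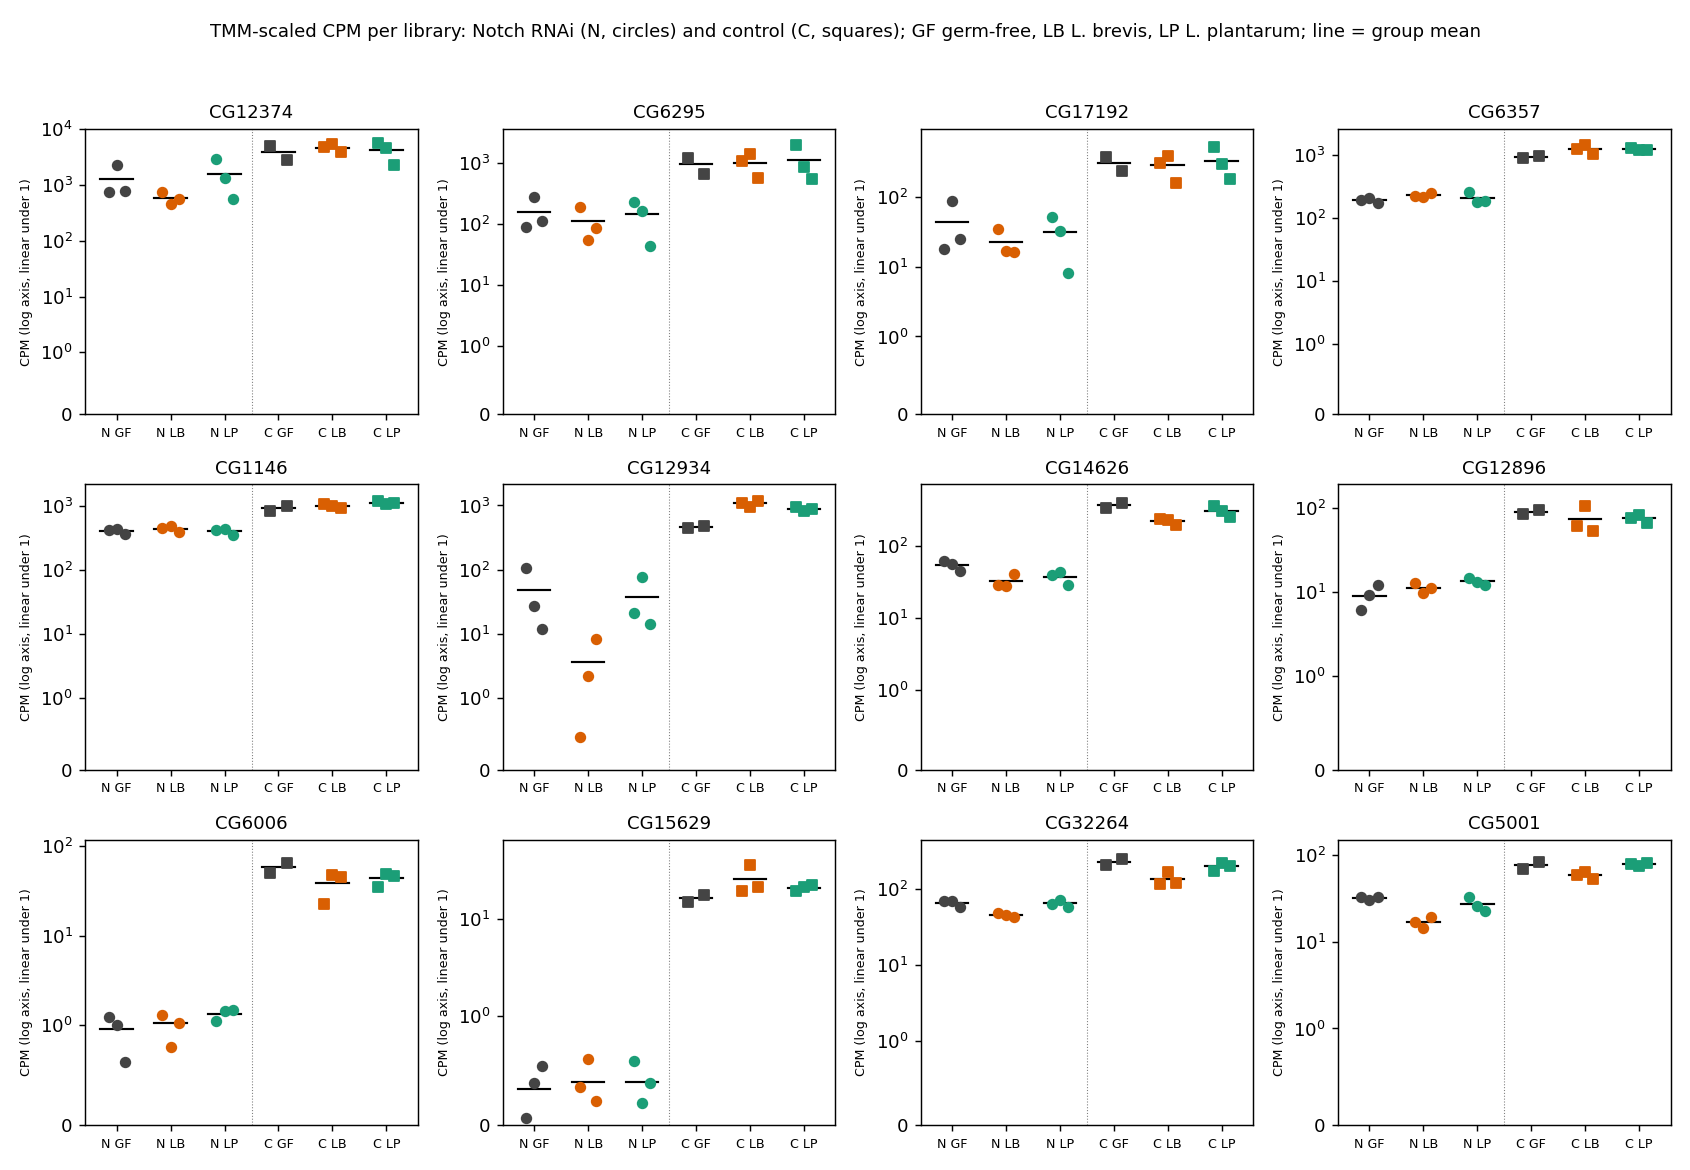
TMM-scaled CPM of 12 of the genes in each library (log axis, linear under 1 CPM), with Notch RNAi groups (N, circles) left of control groups (C, squares), for germ-free (GF), L. brevis (LB) and L. plantarum (LP) flies; lines are group means. CG1146 and CG6357 are tight within groups, while CG12374 and the lipases CG6295 and CG17192 vary several-fold between replicates of a group.

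Proteins of the ecdysteroid kinase-like family are thought in insects to add phosphate to steroid hormones and foreign compounds. Of the 82 genes 3 carry RefSeq synonyms of that family, with mean log2 ratios from -1.60 to -1.19. CG31104 (chromosome 3R, 25285473-25286974, plus strand) stood at 14.8, 44.02 and 26.5 CPM in germ-free, 38.2, 14.9 and 25.4 CPM in L. brevis and 67.3, 27.6 and 17 CPM in L. plantarum Notch RNAi libraries, against 109 and 59.4 CPM in germ-free, 99.2, 87.8 and 67.9 CPM in L. brevis and 141, 84.1 and 44.1 CPM in L. plantarum controls. CG31436, in the same row of genes (25304137-25305651), stood at 38.5, 44.04 and 42.2 CPM in germ-free, 25.1, 24.2 and 36.97 CPM in L. brevis and 41.5, 34.2 and 32.8 CPM in L. plantarum Notch RNAi libraries, against 82.8 and 93.6 CPM in germ-free, 82.8, 79.9 and 64.6 CPM in L. brevis and 76.6, 85.2 and 74.7 CPM in L. plantarum controls. CG33301, on chromosome 2L, stood at 8.01, 33 and 14.3 CPM in germ-free, 13.4, 3.296 and 12.9 CPM in L. brevis and 21.4, 17.5 and 7.09 CPM in L. plantarum Notch RNAi libraries, against 60.3 and 33.6 CPM in germ-free, 38.99, 46.5 and 37.5 CPM in L. brevis and 57.7, 42.98 and 28.1 CPM in L. plantarum controls. CG31436 was tight within groups and kept Notch RNAi and control apart, whereas CG31104 and CG33301 followed CG12374 in being highest in germ-free replicate 2 and L. plantarum replicate 1 among Notch RNAi libraries and lowest in L. plantarum replicate 3 among controls, and in both a Notch RNAi library reached above that lowest control. Between CG31104 and CG31436 lie 8 other counted genes, none of which met the limit, with log2 ratios from -1.24 to -0.33 in germ-free, from -1.27 to -0.39 in L. brevis and from -0.85 to -0.17 in L. plantarum flies.

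The redox genes and a hypoxia-related gene were 4 in number, with a highest control level of 95.9 CPM. CG12896 is named as a peroxiredoxin by its RefSeq synonym; peroxiredoxins remove peroxides. CG12896 (chromosome 2R, 10426880-10427915, minus strand) stood at 6.102, 9.23 and 12.1 CPM in germ-free, 13.02, 9.71 and 11.1 CPM in L. brevis and 14.9, 13.3 and 12.4 CPM in L. plantarum Notch RNAi libraries, against 84.6 and 96 CPM in germ-free, 61.96, 107 and 53.8 CPM in L. brevis and 77.7, 83.8 and 67.5 CPM in L. plantarum controls. All Notch RNAi libraries were far below all controls, and the fitted log2 fold changes were -3.30 ± 0.28, -2.72 ± 0.26 and -2.50 ± 0.26 (SE) in germ-free, L. brevis and L. plantarum flies. CG11825, which a RefSeq synonym names as a homologue of hypoxia-induced gene 1, lies in the same stretch (10420414-10423650) and stood at 5.05, 6.86 and 7.44 CPM in germ-free, 7.12, 5.64 and 10.8 CPM in L. brevis and 9.82, 7.17 and 7.65 CPM in L. plantarum Notch RNAi libraries, against 42.1 and 45.3 CPM in germ-free, 28.03, 47.4 and 26.7 CPM in L. brevis and 32.7, 39.8 and 32.96 CPM in L. plantarum controls. Its Notch RNAi libraries too lay below all controls; an exon of CG33474 overlaps it on the other strand.

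Both genes sit among named peroxiredoxin genes that were also low. Prx6b, between them on the other strand (10424436-10425471), stood at 9.89, 15.1 and 18.6 CPM in germ-free, 18.6, 15.8 and 20.3 CPM in L. brevis and 25.9, 20.2 and 20.99 CPM in L. plantarum Notch RNAi libraries, against 118 and 137 CPM in germ-free, 86.04, 153 and 78.3 CPM in L. brevis and 116, 118 and 97.1 CPM in L. plantarum controls. Prx6c, just before CG11825 (10418718-10419761), stood at 9.202, 14.3 and 16.6 CPM in germ-free, 19.3, 15.95 and 19.2 CPM in L. brevis and 23.5, 17.7 and 19 CPM in L. plantarum Notch RNAi libraries, against 91.3 and 102 CPM in germ-free, 62.5, 110.2 and 57.6 CPM in L. brevis and 89.8, 82.2 and 70.2 CPM in L. plantarum controls. Their log2 ratios of -3.09, -2.50 and -2.28 and of -2.81, -2.05 and -1.98 in germ-free, L. brevis and L. plantarum flies are close to the -3.24, -2.67 and -2.45 of CG12896, and since these genes are similar in sequence, reads may have been split between them in counting. The next gene on the far side, RanBPM, had ratios of -0.39, -0.49 and -0.33.

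The other redox genes were CG10863 and CG9360. CG10863, an aldo-keto reductase by its RefSeq synonym, an enzyme type that reduces aldehydes and sugars, stood at 30.97, 31.7 and 34.9 CPM in germ-free, 28.7, 22.5 and 27.2 CPM in L. brevis and 52.4, 40.96 and 28.2 CPM in L. plantarum Notch RNAi libraries, against 96.9 and 78.6 CPM in germ-free, 97.3, 112 and 99.3 CPM in L. brevis and 86.8, 105 and 99.7 CPM in L. plantarum controls. It overlaps an antisense RNA gene. CG9360, of the short-chain dehydrogenases, stood at 4.98, 7.28 and 6.81 CPM in germ-free, 6.83, 4.201 and 8.86 CPM in L. brevis and 15.4, 10.4 and 8.24 CPM in L. plantarum Notch RNAi libraries, against 18.7 and 23.8 CPM in germ-free, 18.3, 31.3 and 20.7 CPM in L. brevis and 23.8, 30.4 and 31.7 CPM in L. plantarum controls. In both genes the L. plantarum Notch RNAi libraries reached higher than the others without touching the controls.

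**Figure D4:**
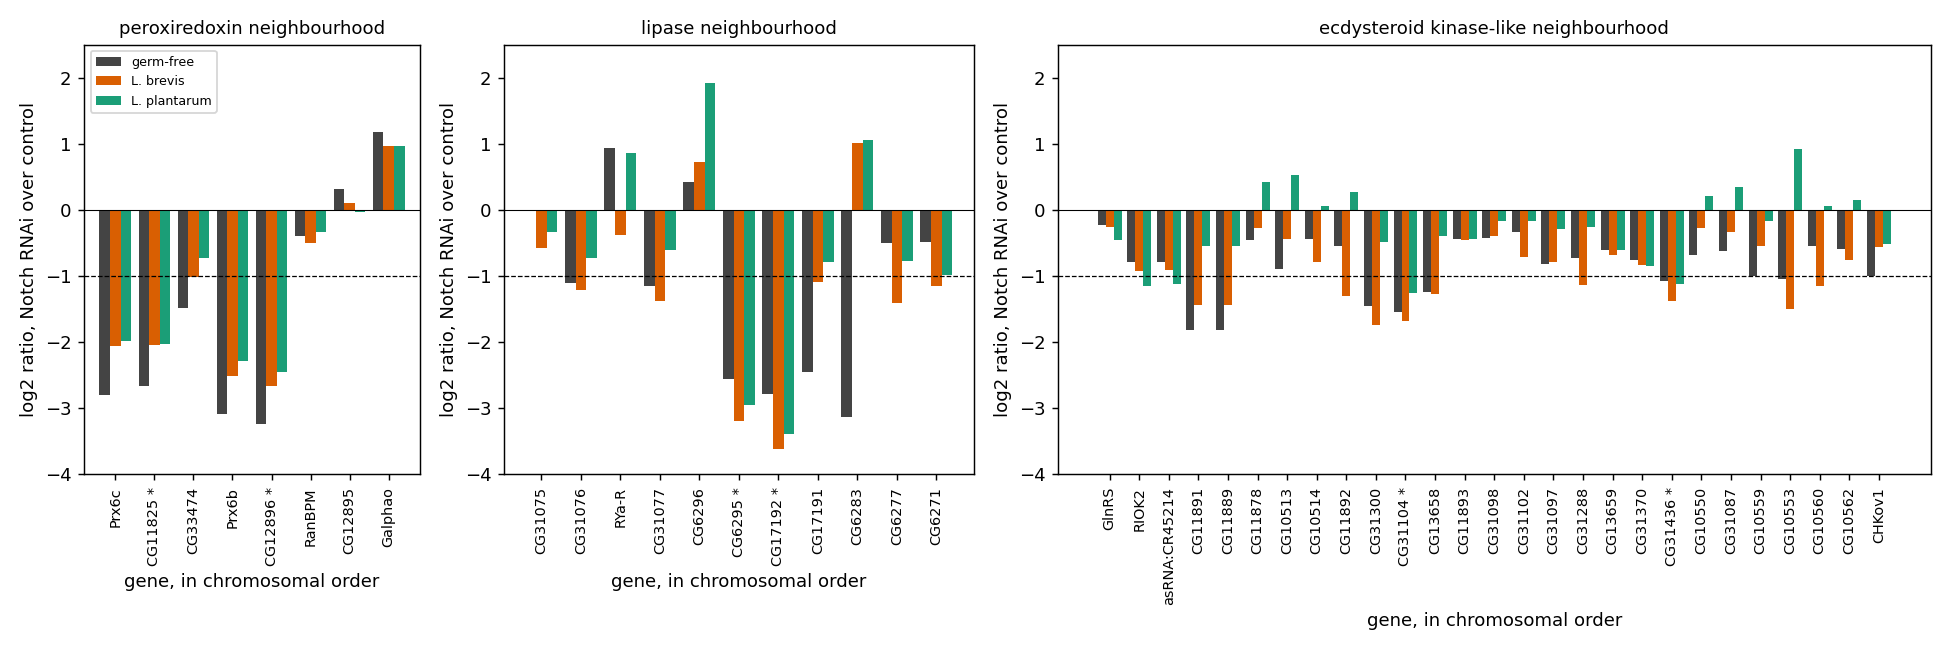
Log2 ratios of Notch RNAi over control in germ-free, L. brevis and L. plantarum flies for neighbouring genes in chromosomal order around CG12896, CG6295 and CG31104, showing genes with a mean control level of at least 1 CPM; asterisks mark the genes of the set and the dashed line the limit of -1. Near CG12896 the low ratios stop at RanBPM, around CG6295 they are flanked by genes on both sides of 0, and around CG31104 most neighbours lie between -1 and 0 in L. brevis flies.

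Transporters were few. CG6006 is of the organic cation transporter family, which moves charged small molecules across membranes, and had the second lowest mean log2 ratio of the set, -4.85 (chromosome 3R, 16154982-16171766, plus strand). It stood at 1.25, 1.004 and 0.633 CPM in germ-free, 1.31, 0.7799 and 1.07 CPM in L. brevis and 1.11, 1.46 and 1.48 CPM in L. plantarum Notch RNAi libraries, against 50.7 and 65.7 CPM in germ-free, 22.97, 47.6 and 44.9 CPM in L. brevis and 35.3, 48.8 and 47.1 CPM in L. plantarum controls. No Notch RNAi library held more than 1.48 CPM and no control library less than 23.0 CPM; the gene overlaps an antisense RNA gene. CG7720, a solute carrier of the sodium-coupled type by its RefSeq synonym, stood at 1.98, 6.44 and 0.482 CPM in germ-free, 4.07, 1.41 and 2.16 CPM in L. brevis and 3.03, 3.34 and 1.38 CPM in L. plantarum Notch RNAi libraries, against 39.5 and 20.2 CPM in germ-free, 15.9, 32.8 and 2.98 CPM in L. brevis and 33.98, 18.2 and 3.21 CPM in L. plantarum controls. Its control libraries varied widely, and L. brevis control replicate 3 and L. plantarum control replicate 3 lay within the range of Notch RNAi libraries.

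Protein handling was represented by CG5001, a J-domain protein, a type of helper of Hsp70 chaperones, and by CG11700, a polyubiquitin gene by its RefSeq synonyms. CG5001 (chromosome 2L, 1185757-1196807, plus strand) stood at 32.9, 29.9 and 32.8 CPM in germ-free, 16.8, 14.5 and 19.5 CPM in L. brevis and 32.6, 25.96 and 22.7 CPM in L. plantarum Notch RNAi libraries, against 69.4 and 83.2 CPM in germ-free, 58.8, 63.6 and 53.03 CPM in L. brevis and 78.5, 74.5 and 81.1 CPM in L. plantarum controls. CG11700 stood at 54.1, 64.4 and 50.9 CPM in germ-free, 47.2, 57.2 and 60.1 CPM in L. brevis and 44.4, 69.2 and 54.1 CPM in L. plantarum Notch RNAi libraries, against 133 and 157 CPM in germ-free, 133, 145 and 133 CPM in L. brevis and 149, 126 and 157 CPM in L. plantarum controls. Both were tight within groups and separate between genotypes, and CG11700 is similar in sequence to other ubiquitin genes, so its counts are uncertain. CG8679, which RefSeq synonyms place among the LEM-domain proteins of the nuclear envelope, stood at 8.91, 10.1 and 8.89 CPM in germ-free, 5.61, 7.02 and 5.75 CPM in L. brevis and 10.6, 9.34 and 6.37 CPM in L. plantarum Notch RNAi libraries, against 20.4 and 22.5 CPM in germ-free, 13.6, 15.1 and 15.5 CPM in L. brevis and 21.8, 24.8 and 22.7 CPM in L. plantarum controls, with all Notch RNAi libraries below all controls.

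Of the 60 genes with no role given, CG12934 had the lowest mean log2 ratio of all 82, -5.26 (chromosome 2R, 10648888-10649830, plus strand). It stood at 106, 27.4 and 12.03 CPM in germ-free, 0.449, 2.19 and 8.46 CPM in L. brevis and 21.3, 78.2 and 14.2 CPM in L. plantarum Notch RNAi libraries, against 445 and 482 CPM in germ-free, 1089, 963 and 1179 CPM in L. brevis and 961, 833 and 867 CPM in L. plantarum controls. Germ-free replicate 1 and L. plantarum replicate 2 were highest among Notch RNAi libraries and L. brevis replicate 1 held almost none. The fitted log2 fold changes were -3.26 ± 1.01, -8.16 ± 1.22 and -4.55 ± 1.02 (SE) in germ-free, L. brevis and L. plantarum flies. Per kilobase of exon its control level of 858 CPM was the third highest of the set, after 2937 CPM for CG12374 and 940.5 CPM for CG6295.

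Other abundant genes with no role given here were CG1146, CG34026 and CG14626. CG1146 (chromosome 3L, 2488804-2492613, plus strand) stood at 411, 429 and 362 CPM in germ-free, 447, 475 and 383 CPM in L. brevis and 418, 436 and 349 CPM in L. plantarum Notch RNAi libraries, against 839 and 993 CPM in germ-free, 1071, 971 and 918 CPM in L. brevis and 1187, 1053 and 1112 CPM in L. plantarum controls. Although its ratio is among the mildest of the set, it kept Notch RNAi and control clearly apart, with fitted log2 fold changes of -1.19 ± 0.12, -1.18 ± 0.11 and -1.48 ± 0.11 (SE). CG34026 (chromosome X, 9533818-9534625, plus strand) stood at 20.8, 60.2 and 48.6 CPM in germ-free, 64.9, 25.7 and 55.1 CPM in L. brevis and 114, 42.7 and 28.03 CPM in L. plantarum Notch RNAi libraries, against 198 and 94.6 CPM in germ-free, 134, 225 and 127 CPM in L. brevis and 294, 175 and 109 CPM in L. plantarum controls, and its highest Notch RNAi library, L. plantarum replicate 1, exceeded its lowest control library. Per kilobase of exon, the highest levels under Notch RNAi were 790.0 CPM for CG12374, 175 CPM for CG1146, 145 CPM for CG6357 and 127 CPM for CG6295.

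Among the other abundant genes with no role given here were CG44085, CG3726 and CG13124. CG44085, which overlaps Drep4 on the other strand, stood at 23.2, 22.7 and 21.2 CPM in germ-free, 23.8, 21.7 and 28.04 CPM in L. brevis and 41.3, 38.2 and 34.97 CPM in L. plantarum Notch RNAi libraries, against 195 and 236 CPM in germ-free, 105, 235 and 148 CPM in L. brevis and 206, 271 and 241 CPM in L. plantarum controls. CG3726 stood at 17.5, 16.6 and 15.6 CPM in germ-free, 10.9, 11.4 and 8.33 CPM in L. brevis and 14.5, 14.1 and 13.2 CPM in L. plantarum Notch RNAi libraries, against 84.04 and 103 CPM in germ-free, 61.6, 62.7 and 62.8 CPM in L. brevis and 74.6, 81.5 and 75.5 CPM in L. plantarum controls. CG13124 stood at 34.01, 29.9 and 32.7 CPM in germ-free, 27.9, 23.1 and 24.5 CPM in L. brevis and 47.1, 41.8 and 30.9 CPM in L. plantarum Notch RNAi libraries, against 94.1 and 109.5 CPM in germ-free, 82.1, 101 and 105 CPM in L. brevis and 103, 116 and 112 CPM in L. plantarum controls. All 3 kept every Notch RNAi library below every control library, and CG3726 and CG13124 were lowest in L. brevis Notch RNAi libraries. Over the 60 genes with no role given here, the control level ran from 0.867 to 1007 CPM and the mean log2 ratio from -5.26 to -1.16 with a median of -1.66. Together they held 35.5% of the summed control level.

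CG14626 and CG14627 lie next to each other on chromosome X on the plus strand. CG14626 (1184778-1188585) stood at 60.95, 56.4 and 45.4 CPM in germ-free, 28.95, 28.1 and 40.7 CPM in L. brevis and 39.4, 42.8 and 28.8 CPM in L. plantarum Notch RNAi libraries, against 339 and 399 CPM in germ-free, 235, 231 and 197 CPM in L. brevis and 358, 304 and 254 CPM in L. plantarum controls. CG14627 (1181620-1183502) stood at 4.49, 3.71 and 4.28 CPM in germ-free, 3.94, 3.195 and 5.67 CPM in L. brevis and 5.28, 4.23 and 4.43 CPM in L. plantarum Notch RNAi libraries, against 28.5 and 36.3 CPM in germ-free, 14.6, 16.3 and 9.97 CPM in L. brevis and 25.4, 23.03 and 15.8 CPM in L. plantarum controls. Each was low in every Notch RNAi library, and the L. brevis controls were the lowest control libraries of CG14626 and, but for L. plantarum replicate 3, of CG14627. CG11380, the next gene after CG14626, had log2 ratios of -1.45 in germ-free, -0.47 in L. brevis and -1.45 in L. plantarum flies. The tested genes before CG14627, which were CG11378, CG11384 and CG11379, had ratios from -0.88 to -0.11 over the 3 conditions.

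Near silence under Notch RNAi was seen in CG15629 and CG17145. CG15629 (chromosome 2L, 4813009-4815891, plus strand) stood at 0.06597, 0.391 and 0.543 CPM in germ-free, 0.353, 0.604 and 0.224 CPM in L. brevis and 0.591, 0.1999 and 0.384 CPM in L. plantarum Notch RNAi libraries, against 15.04 and 17.7 CPM in germ-free, 19.4, 35.8 and 21.3 CPM in L. brevis and 19.5, 21.01 and 22.1 CPM in L. plantarum controls. CG17145 (chromosome 3L, 20221814-20223197, plus strand) stood at 0.132, 0.0558 and 0.301 CPM in germ-free, 0.545, 0.126 and 0.597 CPM in L. brevis and 0.0369, 0.228 and 0.0512 CPM in L. plantarum Notch RNAi libraries, against 5.19 and 4.58 CPM in germ-free, 6.91, 23.9 and 8.06 CPM in L. brevis and 7.74, 11.5 and 14.1 CPM in L. plantarum controls. All Notch RNAi libraries were under 1 CPM and all control libraries at or above 4.58 CPM in both genes. CG15629 overlaps CG3225, another of the 82, on the opposite strand; CG3225 stood at 0.594, 1.199 and 0.482 CPM in germ-free, 1.22, 1.36 and 0.647 CPM in L. brevis and 0.776, 0.514 and 0.973 CPM in L. plantarum Notch RNAi libraries, against 2.97 and 3.93 CPM in germ-free, 3.58, 4.97 and 4.303 CPM in L. brevis and 3.44, 3.66 and 3.56 CPM in L. plantarum controls, and without strand the reads of the overlap cannot be assigned to either. Of the 82 genes 5 had under 10 counts in every Notch RNAi library (CG11951, CG13989, CG14692, CG30486 and CG45002), and 6 had 3 counts or fewer in every library of some Notch RNAi group. The ratios of these genes, and those of CG15629 and CG17145, depend on the added 0.5 CPM and are no measure of the true fold.

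All 82 genes are protein coding. They lie on X (18), 2L (13), 2R (13), 3L (19) and 3R (19), shares of 22%, 15.9%, 15.9%, 23.2% and 23.2%, beside 18%, 17.6%, 20.2%, 19.1% and 24.8% of the tested CG-numbered genes. Their exons cover a median of 1452.5 bp, against 1631 bp in the tested CG-numbered genes. An exon of another gene overlaps 21 of them, 17 on the opposite strand, which is 25.6%, against 41.7% of the tested CG-numbered genes. Neighbouring genes of the set less than 20 kb apart formed 9 pairs, 18 genes in all. How often the tested CG-numbered genes lie so close was not counted, so nothing is read from that number. Beside the pairs already named, the pairs were CG18088 with CG9541, CG42284 with CG30274, CG10970 with CG44325, and CG4678 with CG34325.

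Several of those pairs share exons, so that each cannot be counted as separate evidence. CG42284 and CG30274 overlap on the plus strand of chromosome 2R and their values were alike: CG42284 stood at 0.165, 0.0837 and 0.392 CPM in germ-free, 0.0962, 0 and 0.274 CPM in L. brevis and 0.295, 0.114 and 0.0512 CPM in L. plantarum Notch RNAi libraries, against 1.15 and 1.12 CPM in germ-free, 1.28, 1.51 and 2.04 CPM in L. brevis and 1.26, 0.758 and 0.841 CPM in L. plantarum controls. CG30274 stood at 0.264, 0.0837 and 0.271 CPM in germ-free, 0.0962, 0.0252 and 0.274 CPM in L. brevis and 0.295, 0.114 and 0.0512 CPM in L. plantarum Notch RNAi libraries, against 1.15 and 1.38 CPM in germ-free, 1.25, 1.68 and 2.297 CPM in L. brevis and 1.41, 0.7999 and 0.8795 CPM in L. plantarum controls. Both were at or near 0 in every Notch RNAi library, so their ratios too depend on the added 0.5 CPM. CG18088 and CG9541 overlap on opposite strands of chromosome 2L, where CG9541 stood at 0.561, 0.335 and 0.211 CPM in germ-free, 0.256, 0.0252 and 0.597 CPM in L. brevis and 0.369, 0.428 and 0.614 CPM in L. plantarum Notch RNAi libraries, against 3.61 and 4.103 CPM in germ-free, 2.56, 3.62 and 4.498 CPM in L. brevis and 2.37, 4.55 and 4.13 CPM in L. plantarum controls and CG18088 had log2 ratios of -1.41, -1.67 and -1.06. CG10970 and CG44325 overlap on the minus strand of chromosome X; CG44325 stood at 14.1, 15.01 and 11.7 CPM in germ-free, 8.18, 5.81 and 10.7 CPM in L. brevis and 19.3, 16.1 and 8.58 CPM in L. plantarum Notch RNAi libraries, against 42.9 and 45.4 CPM in germ-free, 54.3, 54.1 and 63.3 CPM in L. brevis and 65.3, 50.3 and 52.3 CPM in L. plantarum controls, and CG10970 had log2 ratios of -1.71, -2.40 and -1.55. In both pairs all Notch RNAi libraries lay below all controls. CG34325 had log2 ratios of -1.05, -1.68 and -1.62 in germ-free, L. brevis and L. plantarum flies. Of the counted genes only CG13008 starts between the end of CG4678 and the start of CG34325. Others, such as sphe and CG9673, start within the span of CG4678.

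The comparisons between microbiome conditions within a genotype were not used to choose the genes, but the same libraries were, and a low level in any Notch RNAi group made it easier for a gene to meet the rule. L. brevis flies were set against germ-free and against L. plantarum flies, and L. plantarum flies against germ-free flies, in each genotype. Under Notch RNAi, the set leaned towards lower levels with L. brevis when set against germ-free flies: of the 82, 11 fell and 1 rose (edgeR's quasi-likelihood test, adjusted p under 0.05), where 4.49% of all tested genes fell and 4.87% rose. The median log2 fold change of the 82 was -0.34, against -0.00 over all tested genes, and 70.7% of the 82 were below 0, against 50.3% of all tested genes. Of the 155 named genes under the same limit 39 fell, which is 25.2%.

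CG5001 held up under all alternatives tried for that comparison. Its level was 16.8, 14.5 and 19.5 CPM in L. brevis and 32.9, 29.9 and 32.8 CPM in germ-free Notch RNAi libraries, with no overlap, and its log2 fold change was -0.91 ± 0.13 (SE; edgeR adjusted p = 0.0015). The calls of CG15312, CG3726 and CG9008 were also kept under all alternatives. CG15312 stood at 9.17, 9.84 and 11.5 CPM with L. brevis and at 18.5, 20.8 and 16.1 CPM in germ-free Notch RNAi libraries, a log2 fold change of -0.86 ± 0.14 (SE; edgeR adjusted p = 0.00238). CG3726 stood at 10.9, 11.4 and 8.33 CPM with L. brevis and at 17.5, 16.6 and 15.6 CPM in germ-free libraries, a log2 fold change of -0.70 ± 0.11 (SE; edgeR adjusted p = 0.00221). In both, every L. brevis library lay below every germ-free library. CG9008, which overlaps genes on the other strand, stood at 22.1, 23.8 and 21.5 CPM with L. brevis and at 34.8, 38.8 and 35.1 CPM in germ-free libraries, a log2 fold change of -0.69 ± 0.10 (SE; edgeR adjusted p = 0.00144).

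The other 8 calls of that comparison were lost under at least 1 alternative. The largest was CG12934, at 0.449, 2.19 and 8.46 CPM with L. brevis and at 106, 27.4 and 12.03 CPM in germ-free Notch RNAi libraries, a log2 fold change of -3.69 ± 1.01 (SE; edgeR adjusted p = 0.0434). The L. brevis libraries were the lower ones, and the replicates varied widely within both groups. Without germ-free Notch RNAi replicate 1 its log2 fold change was -2.39 (edgeR adjusted p = 0.158), and the call was also lost without germ-free replicate 2 (edgeR adjusted p = 0.0819), L. brevis replicate 1 (adjusted p = 0.107) or L. brevis replicate 2 (adjusted p = 0.154), each under Notch RNAi. CG43405 stood at 0.769, 0.629 and 0.846 CPM with L. brevis and at 2.18, 2.01 and 1.05 CPM in germ-free libraries, a log2 fold change of -1.22 ± 0.31 (SE; edgeR adjusted p = 0.0238), which did not pass without germ-free replicate 1 (adjusted p = 0.0947), germ-free replicate 2 (adjusted p = 0.107), L. brevis replicate 1 (adjusted p = 0.0642) or L. brevis replicate 2 (adjusted p = 0.105). In CG43405 too every L. brevis library lay below every germ-free library. The others that fell were CG14642, CG14626, CG8679, CG31436 and CG32264, with log2 fold changes from -0.79 to -0.52; that of CG14642 was -0.47 without germ-free replicate 2 (edgeR adjusted p = 0.259). CG42495 was the only gene of the set that rose, at 6.76, 5.64 and 6.39 CPM with L. brevis and at 4.75, 4.27 and 3.798 CPM in germ-free Notch RNAi libraries, a log2 fold change of 0.55 ± 0.14 (SE; edgeR adjusted p = 0.0257). CG42495 had log2 fold changes from 0.47 to 0.63 when a library was left out, with edgeR adjusted p up to 0.0887 over all alternatives. Over the whole set, the number of calls was 6 without germ-free Notch RNAi replicate 1, 4 without germ-free replicate 2, 5 without L. brevis replicate 1 and 7 without L. brevis replicate 2.

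**Figure D5:**
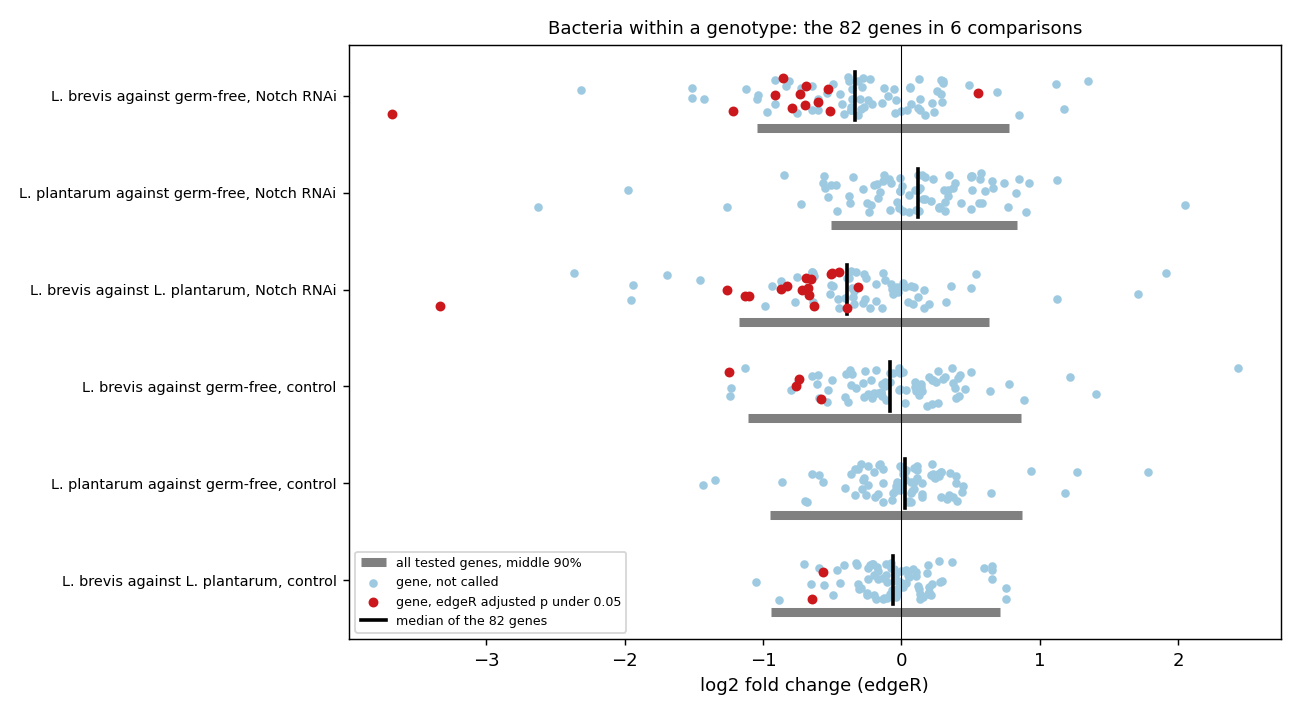
Fitted log2 fold changes of the 82 genes in 6 comparisons between microbiome conditions within a genotype; dots are genes (red where edgeR's adjusted p was under 0.05), black bars their median and grey bars the middle 90% of all tested genes. Under Notch RNAi the medians are -0.34 for L. brevis against germ-free and -0.39 for L. brevis against L. plantarum flies, and CG12934 is the red dot farthest to the left in both.

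Against L. plantarum flies, L. brevis flies under Notch RNAi had 17 lower and 0 higher genes of the set, where 7% of all tested genes fell and 7.36% rose. The median was -0.39, against -0.01 over all tested genes, and 79.3% of the 82 were below 0, against 50.6% of all tested genes; of the 155 named genes 39 fell, which is 25.2%. This comparison shares the L. brevis libraries with the one against germ-free flies, so the results are set side by side and not taken as separate findings. Of the genes that fell, 8 are in both lists, which is 72.7% of the 11 and 47.1% of the 17. CG5001 again held under all alternatives, at 16.8, 14.5 and 19.5 CPM with L. brevis and at 32.6, 25.96 and 22.7 CPM with L. plantarum, a log2 fold change of -0.67 ± 0.13 (SE; edgeR adjusted p = 0.00817). CG12934 stood at 0.449, 2.19 and 8.46 CPM with L. brevis and at 21.3, 78.2 and 14.2 CPM with L. plantarum, a log2 fold change of -3.33 ± 1.00 (SE; edgeR adjusted p = 0.0459). Its call was lost without L. plantarum replicate 2 (log2 fold change -2.24, adjusted p = 0.182), L. plantarum replicate 1 (adjusted p = 0.0687), L. brevis replicate 1 (adjusted p = 0.104) or L. brevis replicate 2 (adjusted p = 0.148). Its L. brevis libraries were all below its L. plantarum libraries, as were those of CG5001. CG32204 stood at 1.86, 3.396 and 4.15 CPM with L. brevis and at 5.06, 10.5 and 7.14 CPM with L. plantarum, a log2 fold change of -1.26 ± 0.34 (SE; edgeR adjusted p = 0.0276), and was not called without L. plantarum replicate 2 (adjusted p = 0.124), L. brevis replicate 1 (adjusted p = 0.0797) or L. brevis replicate 2 (adjusted p = 0.0814). CG43405 stood at 0.769, 0.629 and 0.846 CPM with L. brevis and at 1.99, 1.88 and 1.08 CPM with L. plantarum, a log2 fold change of -1.13 ± 0.31 (SE; edgeR adjusted p = 0.0279), with adjusted p from 0.0654 to 0.109 when L. brevis replicate 1 or 2 or L. plantarum replicate 1 or 2 was left out. In CG32204 and CG43405 the L. brevis libraries again lay below all L. plantarum libraries. The other calls were CG42714, CG15822, CG44325, CG10877, CG15312, CG13124, CG18747, CG10863, CG8679, CG32264, CG3726, CG30460 and CG9008, with log2 fold changes from -1.102 to -0.32, and each of these was lost under at least 1 alternative. Among them, the log2 fold change of CG10863 was -0.4 without L. plantarum replicate 1 (edgeR adjusted p = 0.115). The number of calls was 1 without L. plantarum Notch RNAi replicate 2, 4 without L. plantarum replicate 1, 4 without L. brevis replicate 2 and 6 without L. brevis replicate 1.

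Marker lists moved across the same Notch RNAi libraries. The summed level of the 20 enteroendocrine genes ran from 18531 to 30395 CPM with L. brevis and from 32964 to 39675 CPM with L. plantarum, against 43296 to 56281 CPM in germ-free libraries. Of those 20 genes 7 fell and 2 rose with L. brevis against germ-free flies, and 5 fell and 1 rose with L. brevis against L. plantarum flies. The haemocyte list summed to 149.6 to 157 CPM with L. brevis and to 162 to 188 CPM with L. plantarum, against 163 to 206 CPM in germ-free libraries. Most of that sum came from crq alone, so it is mainly a reading of that gene. Its group means were 134 CPM with L. brevis, 149 CPM with L. plantarum and 161 CPM in germ-free Notch RNAi libraries. Of the 9 E(spl) genes 3 rose with L. brevis against either, with summed levels of 46.6 to 53.3 CPM with L. brevis and 21.1 to 35.4 CPM with L. plantarum, against 21.3 to 30.02 CPM in germ-free libraries, and of the 53 digestive enzymes 0 were called against either. In controls the enteroendocrine list summed to 14587 to 22990 CPM with L. brevis and to 16161 to 22644 CPM with L. plantarum, against 14546 to 15581 CPM in germ-free libraries. The part of these shifts in the result for the 82 genes was not tested.

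With L. plantarum against germ-free flies under Notch RNAi, 0 of the 82 genes were called in edgeR's quasi-likelihood test, where 0.0764% of all tested genes fell and 0.0594% rose. At an unadjusted p under 0.05, 6 of the 82 were lower and 9 higher, where 5.1% of all tested genes were lower and 5.51% higher, and DESeq2 called 2. The median log2 fold change of the 82 was 0.12, against -0.00 over all tested genes. CG12374 stood at 2909, 1352 and 560.3 CPM with L. plantarum and at 758, 2271 and 798 CPM in germ-free Notch RNAi libraries, which overlap widely.

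In control flies few genes of the set were called between microbiome conditions. With L. brevis against germ-free controls 4 of the 82 fell and 0 rose, where 2.95% of all tested genes fell and 5.01% rose, and the median was -0.08, against 0.01 over all tested genes. CG14627 stood at 14.6, 16.3 and 9.97 CPM with L. brevis and at 28.5 and 36.3 CPM in germ-free controls, a log2 fold change of -1.25 ± 0.25 (SE; edgeR adjusted p = 0.0108). Its neighbour CG14626 stood at 235, 231 and 197 CPM with L. brevis and at 339 and 399 CPM in germ-free controls, a log2 fold change of -0.74 ± 0.19 (SE; edgeR adjusted p = 0.033). CG32264, which overlaps an exon of ntc on its own strand, stood at 116, 172 and 121 CPM with L. brevis and at 211 and 251 CPM in germ-free controls, a log2 fold change of -0.76 ± 0.16 (SE; edgeR adjusted p = 0.0132). In all of them every L. brevis control lay below every germ-free control, as it did for CG3726 (log2 fold change -0.58 ± 0.12, SE; edgeR adjusted p = 0.0124). Without germ-free control replicate 2, which leaves 1 library that is assumed to vary like the other groups, 0 of the 82 were called: CG14627 then had -1.07 (adjusted p = 0.13), CG32264 -0.63 (adjusted p = 0.149), CG14626 -0.62 (adjusted p = 0.24) and CG3726 -0.43 (adjusted p = 0.174). Without L. brevis control replicate 1, 2 were called and CG32264 was not (edgeR adjusted p = 0.0528), and CG14626 lost its call without any 1 of the 5 libraries.

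With L. brevis against L. plantarum controls 2 of the 82 fell and 0 rose, where 1.83% of all tested genes fell and 0.976% rose. CG8679 stood at 13.6, 15.1 and 15.5 CPM with L. brevis and at 21.8, 24.8 and 22.7 CPM with L. plantarum, a log2 fold change of -0.65 ± 0.16 (SE; edgeR adjusted p = 0.0398). CG32264 stood at 116, 172 and 121 CPM with L. brevis and at 177, 224 and 206 CPM with L. plantarum, a log2 fold change of -0.57 ± 0.14 (SE; edgeR adjusted p = 0.0461). The L. brevis libraries lay below the L. plantarum libraries in both genes. Neither call was kept without L. brevis control replicate 1 or 3 or without L. plantarum control replicate 2 or 3, where 0 of the 82 were called, and CG8679 was also lost without L. brevis control replicate 2 (edgeR adjusted p = 0.0816). With L. plantarum against germ-free controls 0 of the 82 were called in edgeR's quasi-likelihood test, where 0.0424% of all tested genes fell and 0.119% rose; at an unadjusted p under 0.05, 3 were lower and 5 higher, where 5.78% of all tested genes were lower and 8.72% higher, and DESeq2 called 1.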

How the data were processed

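RNA of sorted intestinal cells was sequenced in 17 libraries of 6 groups, and the authors deposited 1 table of raw read counts per gene; FastQC, Trimmomatic, HISAT2, SAMtools and edgeR are named in the submitters' processing notes, with the genome build, counter and use of strand not given in the sources used here. Gene symbols came from gene identifiers (17599 of 17737 matched), positions, exon lengths and overlaps from the Ensembl BDGP6 annotation, and synonyms from RefSeq. TMM-scaled CPM (counts per 1000000) gave group means and ratios. edgeR 4.0.16 (R 4.3.3) was run with its default expression filter on all 17 libraries with 1 term per group (quasi-likelihood test, Benjamini-Hochberg adjustment over 11786 genes, threshold 0.05), after checks on simulated data; these genes hold 99.98% of counts.

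Each library was taken as 1 replicate, as labelled. No 2 libraries of a group agreed within counting noise, which cannot by itself show that they are independent. DESeq2 1.42.0, RLE size factors, other filters, other rule settings, a fit of the compared groups, a replicate block and leaving out libraries were tried. The 82 genes, the gene lists and the roles were chosen with earlier results of these data known, so the Notch RNAi contrast is given without a test. Named with values were the highest levels per kilobase, the lowest ratios, the genes at the limit, neighbours within 20 kb and the largest calls per comparison, and, chosen after values were seen, the genes with a role, CG44085, CG3726 and CG13124. Protein sequences were not used here, so no grouping by identity was made.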

Additional observations from a re-analysis of the deposited data

Results flagged for a closer look

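For 3 genes of the set, every library moved one way between microbiome conditions in Notch RNAi flies and the other way in control flies. The share of all tested genes that do so was not counted, so nothing is read from that number. The difference between genotypes was not tested in any of the 3. CG12934 had a log2 fold change of -3.69 for L. brevis against germ-free flies under Notch RNAi and of 1.22 in controls, where it stood at 1089, 963 and 1179 CPM with L. brevis and at 445 and 482 CPM in germ-free libraries. For L. brevis against L. plantarum flies the same gene had -3.33 under Notch RNAi and 0.28 in controls, and its L. brevis libraries enter both comparisons. CG44325 had -0.73 for L. brevis against germ-free flies under Notch RNAi and 0.37 in controls. CG12896 had 0.56 for L. plantarum against germ-free flies under Notch RNAi and -0.24 in controls. Of all these changes only those of CG12934 under Notch RNAi were called, and those of CG44325 and CG12896 were called in neither genotype.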

How the results depend on the processing

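The number of genes under the rule was 82, and it was 42 with 5 CPM added in place of 0.5, 132 with a limit of -0.8 and 77 to 97 when single libraries were left out. For L. brevis against germ-free flies under Notch RNAi, 12 genes were called, 7 in a fit of only the compared groups and 4 to 12 without single libraries. For L. brevis against L. plantarum flies under Notch RNAi, 17 were called, 8 in a fit of only the compared groups and 1 to 21 without single libraries. For L. brevis against germ-free controls, 4 were called, 7 by DESeq2, 0 in a fit of only the compared groups and 0 to 4 without single libraries. For L. brevis against L. plantarum controls, 2 were called, 4 by DESeq2, 0 in a fit of only the compared groups and 0 to 2 without single libraries. For L. plantarum against germ-free flies, 0 were called in either genotype, and DESeq2 called 2 under Notch RNAi and 1 in controls. The fits of only the compared groups had fewer libraries. Under Notch RNAi they tested 70 of the 82 genes for L. plantarum against germ-free flies and 71 for both other comparisons, against 82 in controls. What changed the number of calls was not tested for any of the alternatives. Over the alternatives, calls among all genes ran from 326 to 1672 (1103 as reported) with L. brevis against germ-free flies and from 250 to 2523 (1692) against L. plantarum flies under Notch RNAi, from 0 to 1452 (939) and from 2 to 1292 (331) in controls, and from 0 to 155 (16) under Notch RNAi and from 0 to 319 (19) in controls for L. plantarum against germ-free flies. Of 416 repeats of the named genes' fold changes, 269 kept direction and call, 147 kept direction and lost the call, and 0 reversed. Deviations of same-numbered replicates correlated at -0.18 to 0.28, over 0.1 in 6 of 16 pairs, and the reported fit did not pair the libraries. In 15 of 24 further checks, each with 3 candidate libraries, a library correlated best with its own number. A library recurs across those checks. Whether same-numbered libraries shared a batch was not tested. With the replicate block, L. brevis gave 11 calls against germ-free and 15 against L. plantarum flies under Notch RNAi, 3 and 2 in controls, and L. plantarum against germ-free flies gave 0 in either genotype. Depth limits the scarce genes: 5 had under 10 counts in every Notch RNAi library.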

Other observations

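Several of the abundant genes varied together between libraries of one group. CG12374, CG6295, CG17192, CG34026, CG31104 and CG33301 were each highest in replicate 2 of the germ-free, in replicate 1 of the L. brevis and in replicate 1 of the L. plantarum Notch RNAi libraries, and in replicate 1 of the germ-free and of the L. plantarum controls. All of them were lowest in replicate 3 of the L. plantarum libraries of both genotypes. Summed over the 82 genes, the level was 2455, 4338 and 2387 CPM in germ-free, 2406, 1876 and 2161 CPM in L. brevis and 5081, 3268 and 1949 CPM in L. plantarum Notch RNAi libraries, against 12204 and 9444 CPM in germ-free, 12319, 13691 and 10429 CPM in L. brevis and 14984, 12262 and 9348 CPM in L. plantarum controls.

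CG32379 and CG4053, a carboxypeptidase-type and a serine-protease-type gene on different chromosomes, were both low in replicate 1 of the L. brevis and L. plantarum controls and high in L. brevis control replicate 3, at 7.13 and 3.68 times the mean of replicates 1 and 2 of that group with 0.5 CPM added. They were the only genes of the 82 above 2 by that measure, whose median was 0.890 over the 82 genes and 0.994 over all tested genes. L. brevis control replicate 3 also had the highest summed level of the visceral muscle genes, and a link was not tested.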
